A study of Homo sapiens with 6 samples.

Results

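The 42 genes described here are interferon-response and antiviral genes, a list of interferon-stimulated effectors, sensors, transcription factors and antigen-processing genes looked up by symbol among the 19775 genes of the array. Of the 42, 41 had a probe set with a single gene symbol, and 31 had a mean signal above background and were tested. They were measured in HepG2 cells, a line from a human liver tumour classed as a hepatoblastoma, in 6 arrays. Cells had been transfected with an siRNA against HNF4A, the nuclear receptor that maintains liver gene expression (siHNF4a), or with a control siRNA (siControl). TGF-beta at 3 ng/ml was added for 0, 1.5 or 24 h, the 0 h cells receiving none, and each of the 6 combinations gave 1 array, so no group had a replicate. All cells carried an siRNA, and no array of untransfected cells was used here, so an effect of transfection that both siRNAs share cannot be seen. The siRNA labels do not say how many siRNA sequences were used. No array at 1.5 or 24 h lacked TGF-beta, so the cytokine and the time in culture cannot be told apart.

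Interferons are cytokines released by infected cells. Type I and type III interferons bind separate receptors that both activate the kinases JAK1 and TYK2. The complex ISGF3, which contains STAT2 and IRF9, then binds the interferon-stimulated response element (ISRE) in promoters, whereas interferon gamma acts through the gamma-activated site (GAS). The induced proteins bind foreign RNA, attach the ubiquitin-like ISG15 to other proteins, degrade RNA or load peptides on class I molecules. The sensors RIG-I and MDA5 and the kinase PKR recognise double-stranded RNA, and hepatocytes respond to both type I and type III interferon.

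The promoters of the 5 members that passed the test for the siRNA, and of IFI6, are shown because they differ in the motifs they hold. Each run is 300 bases from RefSeq (GRCh38.p14), 250 before to 50 after the transcription start, 5′ to 3′ on the gene's strand. Capitals mark the ISRE core (GAAA, then NN, then GAAA) or the GAS core (TTC, then NNN, then GAA), searched on both strands. The windows are chr10:89392373-89392672 (plus strand) for IFIT1, chr1:1013247-1013546 (plus strand) for ISG15, chr17:43006534-43006833 (plus strand) for IFI35, chr14:24161015-24161314 (plus strand) for IRF9, chr10:89414318-89414617 (plus strand) for IFIT5 and chr1:27672143-27672442 (minus strand) for IFI6.
IFIT1 promoter: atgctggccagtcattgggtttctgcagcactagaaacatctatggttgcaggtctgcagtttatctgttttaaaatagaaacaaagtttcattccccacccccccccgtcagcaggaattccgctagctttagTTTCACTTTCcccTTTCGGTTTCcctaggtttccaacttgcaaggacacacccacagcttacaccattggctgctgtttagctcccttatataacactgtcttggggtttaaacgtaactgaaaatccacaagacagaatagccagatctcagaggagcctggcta
ISG15 promoter: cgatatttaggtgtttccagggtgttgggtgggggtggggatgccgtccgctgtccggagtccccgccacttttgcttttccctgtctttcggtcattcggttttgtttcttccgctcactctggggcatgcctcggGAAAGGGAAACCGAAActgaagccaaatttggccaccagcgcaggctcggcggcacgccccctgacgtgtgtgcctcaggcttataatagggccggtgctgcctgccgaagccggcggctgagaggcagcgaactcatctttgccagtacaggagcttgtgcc
IFI35 promoter: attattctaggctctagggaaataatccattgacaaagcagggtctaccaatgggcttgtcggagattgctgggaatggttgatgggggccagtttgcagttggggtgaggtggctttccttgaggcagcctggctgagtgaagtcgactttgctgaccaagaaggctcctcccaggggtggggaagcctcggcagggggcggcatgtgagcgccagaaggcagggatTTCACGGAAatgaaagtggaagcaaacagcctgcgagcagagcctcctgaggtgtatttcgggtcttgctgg
IRF9 promoter: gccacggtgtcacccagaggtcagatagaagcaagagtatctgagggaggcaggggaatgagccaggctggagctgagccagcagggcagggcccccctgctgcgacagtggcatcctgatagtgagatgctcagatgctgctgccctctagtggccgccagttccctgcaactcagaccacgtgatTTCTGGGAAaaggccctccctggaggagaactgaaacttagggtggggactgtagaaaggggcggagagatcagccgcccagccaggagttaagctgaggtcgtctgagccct
IFIT5 promoter: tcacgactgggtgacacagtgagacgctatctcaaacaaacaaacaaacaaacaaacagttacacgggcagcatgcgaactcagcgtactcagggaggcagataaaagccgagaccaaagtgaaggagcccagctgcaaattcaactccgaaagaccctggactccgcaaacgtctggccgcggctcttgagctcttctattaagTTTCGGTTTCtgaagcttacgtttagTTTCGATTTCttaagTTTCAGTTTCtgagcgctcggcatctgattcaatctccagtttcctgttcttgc
IFI6 promoter: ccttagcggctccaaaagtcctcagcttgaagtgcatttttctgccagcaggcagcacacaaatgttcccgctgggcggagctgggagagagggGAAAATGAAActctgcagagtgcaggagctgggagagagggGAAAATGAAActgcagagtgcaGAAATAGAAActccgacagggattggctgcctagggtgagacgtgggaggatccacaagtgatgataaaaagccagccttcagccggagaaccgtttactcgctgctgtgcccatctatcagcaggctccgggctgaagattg

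IFIT1 and ISG15 each held 2 ISRE cores, overlapping one another in ISG15, and IFIT5 and IFI6 each held 3. IFI35 and IRF9 held no ISRE core in these windows and 1 GAS core each. Promoters were found for 34 of the 42 members, 11 of them with more than 1 start. An ISRE core lay in at least 1 window of 22 of the 34 (64.7%), against 4.38% of 27303 genes in the table, and a GAS core in 10 (29.4%), against 9.38%. Both motifs were present in 6 members and neither in 8. No ISRE core overlapped a GAS core in the printed promoters. These are matches of letters and were not tested as binding sites.

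The values are MAS5 signals, linear intensities in which each array is scaled to the same trimmed mean. The floor was 12.9, the median of all signals, and signals under it were raised to it before log2 was taken. A control probe set for ribosomal RNA sequence (AFFX-HUMRGE, 5' end) read 8599.7 on the siControl array at 0 h and 69.8 to 736.5 on the other 5 arrays. The counts of members called are given with and without that array. Single-array differences of siControl from 0 h, and those between the siRNAs at 0 h, rest on it and have no value without it. Albumin (ALB) signals were 8509.3 to 9727.4 in siHNF4a and 8099.0 to 8322.8 in siControl, and all 9 hepatocyte markers lay above the floor on every array. Of these 9, the transthyretin gene TTR fell with siHNF4a (-0.52) and at 24 h (-0.54), the fibrinogen gene FGB rose with siHNF4a (0.74) and fell at 24 h (-0.65), and SERPINA1, which encodes alpha-1 antitrypsin, rose at 24 h (0.34). The leukocyte marker PTPRC stayed at 10.0 or less and the endothelial markers VWF and CDH5 at 10.7 or less. PECAM1, an adhesion molecule of the same endothelial list, had 65.7, 57.5 and 98.0 in siHNF4a and 47.0, 81.8 and 127.2 in siControl and rose at 24 h (1.01 ± 0.27, limma adjusted p = 0.0221). The summed signal of the 6 endothelial markers was 68.2 to 132.4 in siHNF4a and 68.2 to 149.1 in siControl. Of 8 measured blood markers 3 lay under the floor on all arrays, and their summed signal was 2311.5 to 3062.2 in siHNF4a and 2393.1 to 2903.3 in siControl, most of it from LYZ. Of that list CD14, a lipopolysaccharide co-receptor that hepatocytes also make, fell with siHNF4a (-1.18) and rose at 24 h (1.39). The part of these marker changes in the results below was not tested. HNF4A itself was not analysed here, and no check of the knockdown is given. In bulk RNA a lower signal from fewer cells of a kind and from less RNA per cell cannot be told apart.

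Several classical antiviral genes were near background in these cells. The 10 members with a mean signal under the floor were IFIT2, OAS2, DDX60, HERC5, HERC6, RSAD2, IFI44, IFI44L, SAMD9 and IRF7, with signals from 0.8 to 18.4. IFIT2 read 9.5, 12.7 and 18.4 in siHNF4a and 12.2, 17.0 and 3.0 in siControl, and RSAD2, the viperin gene, 14.1, 10.1 and 2.1 in siHNF4a and 11.2, 1.3 and 1.8 in siControl, and such readings have no order that can be relied on. IFI44, IFI44L, SAMD9 and IRF7, which amplifies interferon induction, lay at or under the floor on all 6 arrays. STAT2, the ISGF3 subunit, had no probe set with a single symbol and was not analysed here. Of the 31 tested members 28 lay above the floor on every array, while IFIT1, IFI27 and XAF1 lay under it on 1 siHNF4a array each. The mean signal of XAF1 was 12.2 in siHNF4a, under the floor, and 24.1 in siControl, so XAF1 entered the tests only through siControl, where it was the higher.

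**Figure D1:**
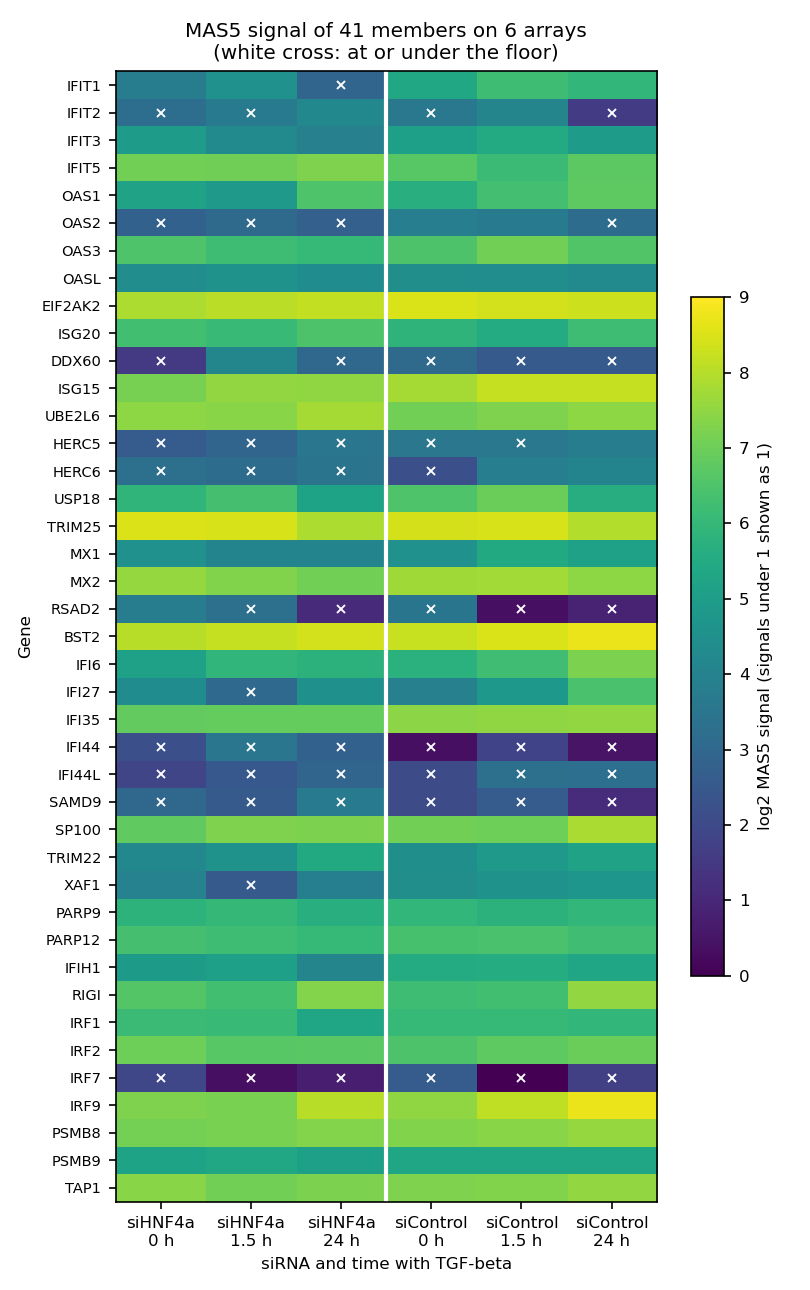
MAS5 signals (log2 colour scale) of the 41 measured members, in rows, on 6 arrays in columns, siHNF4a left and siControl right, with white crosses at signals at or under the floor of 12.9. Crosses fill the rows of IFI44, IFI44L, SAMD9 and IRF7. Colours compare arrays within a row, since probe sets of different genes differ in sensitivity.

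The comparison of siHNF4a with siControl asked which of these genes differ when HNF4A is targeted. IFIT1, ISG15, IFI35 and IRF9 fell, IFIT5 rose, and the other 26 tested members did not pass. The 5 called were 16.1% of the 31, where 8.06% of all 11921 genes tested were called. Of them 4 of 31 fell (12.9%), where 4.16% of all genes fell, and 1 rose (3.23%), where 3.9% of all genes rose. The median log2 difference over the tested members was -0.26, against -0.04 over all genes tested. Before adjustment 15 of the 31 had a p under 0.05, as did 2552 of the 11921 genes. Tests are limma's, with time as a block, residual spread from the disagreement between times and Benjamini-Hochberg adjustment over all genes.

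IFIT1, which binds foreign RNA lacking the methylated cap of the host, had signals of 14.0, 23.3 and 7.7 in siHNF4a at 0, 1.5 and 24 h, against 40.9, 74.2 and 62.7 in siControl. The groups did not overlap, and the siHNF4a array at 24 h lay under the floor. Its log2 difference was at least -1.83 ± 0.26 (SE, limma adjusted p = 0.000462). IFIT3, a partner of IFIT1 in the same complex, had 30.6, 20.0 and 15 in siHNF4a, against 33.8, 45.3 and 30.4 in siControl. The difference of -0.78 ± 0.28 did not pass (limma adjusted p = 0.105), and the siHNF4a array at 0 h overlapped the siControl arrays. A second IFIT3 probe set gave -0.61.

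IFIT5, the family member from the same gene cluster on chromosome 10, went the other way. Its signals were 136.9, 133.9 and 152.6 in siHNF4a, against 101.1, 70.7 and 106.0 in siControl, without overlap. It rose by 0.63 ± 0.18 (limma adjusted p = 0.0443), and its other probe set gave 0.86. IFIT5 was the only tested member with all siHNF4a arrays above all siControl arrays (3.23% of the 31, against 7.12% of all genes).

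ISG15, the ubiquitin-like modifier, had 144.0, 186.3 and 182.5 in siHNF4a, against 222.6, 292.8 and 293.6 in siControl. The groups did not overlap, and the single-array differences were -0.63, -0.65 and -0.69 at 0, 1.5 and 24 h. It fell by 0.66 ± 0.14 (limma adjusted p = 0.00965). Other genes of its conjugation system did not pass. USP18, the protease that removes ISG15 and blocks the interferon receptor, had -0.55 ± 0.20 (limma adjusted p = 0.109), the conjugating enzyme UBE2L6 0.28 ± 0.15, and the ligase TRIM25 0.01 ± 0.13.

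IFI35, an interferon-induced leucine zipper protein, was as even across times as ISG15. Its signals were 113.3, 116.6 and 118.5 in siHNF4a, against 173.4, 181.2 and 187.7 in siControl, and it fell by 0.64 ± 0.16 (limma adjusted p = 0.0217). The transcription factor IRF9 had 152.6, 145.2 and 264.2 in siHNF4a, against 180.9, 280.0 and 426.2 in siControl. It was lower in siHNF4a at each time, though the siHNF4a array at 24 h lay above the siControl array at 0 h. It fell by 0.63 ± 0.16 (limma adjusted p = 0.0238). The other transcription factors had -0.16 ± 0.22 (IRF1) and 0.05 ± 0.20 (IRF2), and neither passed.

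**Figure D2:**
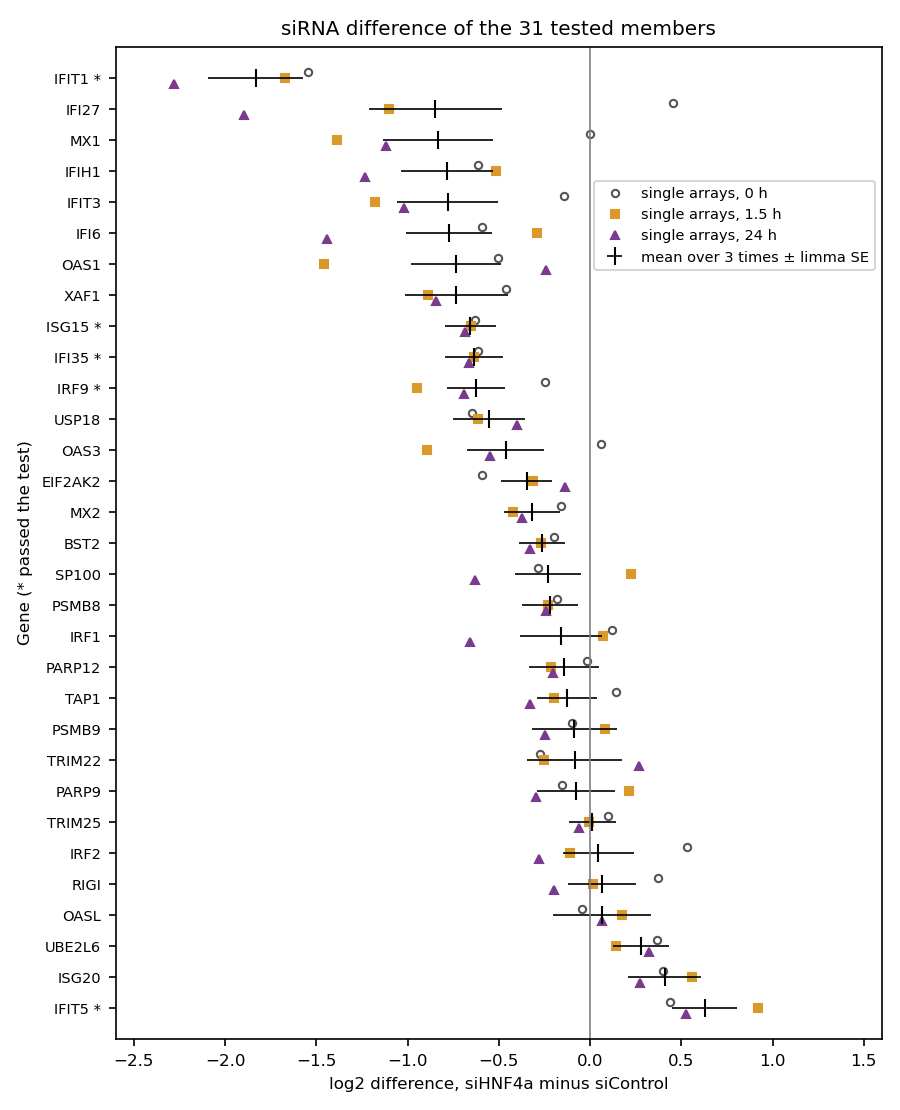
Log2 difference, siHNF4a minus siControl, for the 31 tested members in rows: points are pairs of single arrays at 0, 1.5 and 24 h, ticks with bars the mean over 3 times ± limma SE, and stars members that passed. ISG15 and IFI35 points lie together, while those of IFI27 spread from above 0 at 0 h to about -1.90 at 24 h.

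A further 5 members differed by at least 2-fold between siRNAs at 1.5 or 24 h without passing the test over the times, besides IFIT3. MX1, a GTPase that traps viral nucleocapsids, had 23.7, 16.8 and 16.5 in siHNF4a, against 23.7, 43.9 and 35.8 in siControl, equal at 0 h and apart later (-0.83 ± 0.30, limma adjusted p = 0.11). The MDA5 gene IFIH1 had 30.0, 33.7 and 16.9 in siHNF4a, against 45.9, 48.1 and 39.7 in siControl, without overlap (-0.79 ± 0.25, adjusted p = 0.0714). Both were dim, within a few fold of the floor.

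IFI6, an interferon-induced membrane protein, had 35.3, 61.2 and 55.3 in siHNF4a, against 53.2, 74.8 and 150.1 in siControl (-0.77 ± 0.24, limma adjusted p = 0.0597). OAS1, which makes the 2-5A that activates the nuclease RNase L, had 36.3, 28.8 and 91.6 in siHNF4a, against 51.6, 79.1 and 108.4 in siControl (-0.74 ± 0.25, adjusted p = 0.0855). IFI27 had 20.7, 8.4 and 23.1 in siHNF4a, against 15.1, 27.7 and 86.1 in siControl, so that siHNF4a was the higher at 0 h and the lower afterwards (at least -0.85 ± 0.36, adjusted p = 0.187). These 3 overlapped between the siRNAs.

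The single-array counts leaned the same way at later times. At least 2-fold lower in siHNF4a was 1 tested member at 0 h (3.23% of the 31, against 1.63% of all genes). There were 5 at 1.5 h (16.1%, against 3.26%) and 6 at 24 h (19.4%, against 3.05%). None was 2-fold higher at any time, where 1.47%, 1.54% and 2.23% of all genes were. Lower at all 3 times were 15 of 31 (48.4%), against 23.7% of all genes, and higher at all 3 times were 3 (9.68%), against 17.5%. All siHNF4a arrays lay below all siControl arrays for 6 of 31 members (19.4%), against 10.3% of all genes; these were IFIT1, ISG15, IFI35, IFIH1, XAF1 and the PKR gene EIF2AK2. Without XAF1 the count was 5 of 30 (16.7%), and that of members lower at all 3 times 14 of 30 (46.7%).

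EIF2AK2 had signals of 237.0, 271.3 and 287.7 in siHNF4a, against 357.6, 336.8 and 316.7 in siControl, and did not pass (-0.35 ± 0.14, limma adjusted p = 0.149). Its second probe set above the floor on all arrays gave 0.08, in the other direction. Of 9 members with more than 1 such probe set, 5 had one direction in all of them and 4 (EIF2AK2, PARP9, RIGI and SP100) did not. The RIG-I gene RIGI had 0.06 ± 0.19. The immunoproteasome subunits PSMB8 and PSMB9 and the peptide transporter TAP1 had -0.22 to -0.09, and none passed.

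None of the remaining effectors passed for the siRNA. XAF1, a pro-apoptotic partner of the inhibitor XIAP, had 15.9, 5.9 and 14.8 in siHNF4a, against 21.9, 23.9 and 26.6 in siControl, without overlap (at least -0.73 ± 0.28, limma adjusted p = 0.134). A second XAF1 probe set, above the floor on 3 arrays, read 14.6, 8.1 and 20.1 in siHNF4a and 12.6, 9.9 and 16.1 in siControl. It overlapped and gave 0.17, in the other direction. OAS3, another 2-5A synthetase, had 92.3, 73.1 and 64.7 in siHNF4a, against 88.7, 136.0 and 94.7 in siControl, the siHNF4a array at 0 h lying within the siControl range (-0.46 ± 0.21). The other OAS3 probe set, above the floor on 5 arrays, gave 0.27, in the other direction. The family member OASL, which lacks synthetase activity, stayed between 20.9 and 24.3 in siHNF4a and between 20.0 and 21.9 in siControl.

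MX2, a GTPase that restricts HIV-1, had 188.8, 158.9 and 136.9 in siHNF4a, against 210.5, 213.0 and 177.3 in siControl, lower at each time but overlapping (-0.32 ± 0.15, limma adjusted p = 0.244). BST2, the tetherin that holds budding virions at the cell surface, had 264.8, 299.3 and 338.1 in siHNF4a, against 303.8, 360.4 and 424.4 in siControl, also lower at each time (-0.26 ± 0.13, adjusted p = 0.244). The ADP-ribosyltransferase family members PARP9 (-0.08 ± 0.21) and PARP12 (-0.14 ± 0.19) lay near 0. UBE2L6 and ISG20 were higher in siHNF4a at each time, ISG20 with 76.8, 67.8 and 88.7 in siHNF4a, against 58.3, 46.0 and 73.5 in siControl, with overlap and without passing (0.41 ± 0.20).

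The test of whether the siRNA difference at 24 h departed from its mean at 0 and 1.5 h called no member and none of the 11921 genes (0%). At an unadjusted p under 0.05 it held 2 members and 541 genes. The 2 were IFI27, with a difference of -1.57 ± 0.67 and an unadjusted p of 0.0424, and IFI6, with an unadjusted p of 0.0448; limma's adjusted p was 0.999 for both. A change of the siRNA difference with time was therefore not shown for any of them.

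Without the siControl 0 h array the siHNF4a array at 0 h had no partner, so the siRNA difference was that at 1.5 and 24 h alone. In that fit 7 members fell and 1 rose, 25.8% of the 31, where 7.89% of all genes were called. IFI27 (-1.50, limma adjusted p = 0.00131), MX1 (-1.25, 0.0137), IFIT3 (-1.10, 0.0377) and IFI6 (-0.87, 0.0436) then passed, and IFI35 did not (-0.65, 0.0676). The single-array differences at 0 h, which that fit leaves out, were 0.46 for IFI27, 0.0 for MX1, -0.14 for IFIT3 and -0.59 for IFI6. Without the 1.5 h pair of arrays 2 passed, IFIT1 and ISG15 (6.45%, against 4.85% of all genes). Without the 24 h pair 1 passed, IFIT1 (3.23%, against 1.97% of all genes). The spread then rested on 1 residual degree of freedom, as it did without the siControl 0 h array. IFIT1 kept the call in each of these fits.

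Beyond the members, the interferon ligands were near background. Of 18 measured interferon genes 16 lay at or under the floor on all 6 arrays, IFNB1 with signals of 1.8 to 2.0 in siHNF4a and 1.4 to 5.3 in siControl. IFNL1, a type III interferon, was the only one to enter the tests, with 16.7, 20.2 and 14.4 in siHNF4a, against 13.1, 23.2 and 12.2 in siControl, and it did not pass. All 16 measured receptor and JAK-STAT genes entered the tests. Of the 16, 1 fell with siHNF4a and 15 did not pass, where 4.16% of all genes fell. The 1 was IL10RB, the receptor chain shared by type III interferons and interleukin-10, with 103.5, 81.4 and 93.9 in siHNF4a, against 138.0, 149.5 and 210.4 in siControl, without overlap (-0.82 ± 0.18, limma adjusted p = 0.0127). With the 1.5 h pair left out the IL10RB difference was -0.79, with the 24 h pair left out -0.65, and neither passed.

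Of 44 tested other interferon-stimulated genes 5 fell with siHNF4a, 1 rose and 38 did not pass, and their median was -0.09. Over all genes tested 4.16% fell and 3.9% rose, with a median of -0.04. TNFSF10, the death ligand TRAIL, had 19.1, 19.1 and 13.0 in siHNF4a, against 74.3, 52.3 and 67.3 in siControl, and fell by 1.93 ± 0.26 (limma adjusted p = 0.000333). IFITM1, which blocks viral entry at membranes, had 42.9, 48.5 and 114.0 in siHNF4a, against 83.4, 100.4 and 251.2 in siControl, and fell by 1.05 ± 0.18 (adjusted p = 0.00266). APOL1 (-0.65 ± 0.16) and the phospholipid scramblase PLSCR1 (-0.62 ± 0.13) also fell.

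PNPT1, a mitochondrial RNA exonuclease, was the 1 that rose (0.49 ± 0.10) and was named after its value was seen. Without the 24 h pair TNFSF10 alone of these genes passed. None of 11 tested sensing and induction genes, 17 class I presentation genes or 3 constitutive proteasome subunits passed for the siRNA. Their medians were -0.02, 0.00 and 0.11.

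The comparison with 24 h of TGF-beta asked which members differed from 0 h over both siRNAs. OAS1, IFI6, RIGI, IRF9 and TRIM22 rose, USP18 and TRIM25 fell, and 24 tested members did not pass. The 7 called were 22.6% of the 31, where 15% of all genes were called. The 5 that rose were 16.1%, where 7.22% of all genes rose, and the 2 that fell 6.45%, where 7.82% of all genes fell. The median over the tested members was 0.09, against -0.03 over all genes.

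IRF9, lower with siHNF4a, was higher at 24 h in both siRNAs, by 0.79 in siHNF4a and by 1.24 in siControl between single arrays, and rose by 1.01 ± 0.19 over both (limma adjusted p = 0.00277). RIGI had 95.9, 78.2 and 162.4 at 0, 1.5 and 24 h in siHNF4a, and 74.0, 77.3 and 186.3 in siControl. In both siRNAs the 24 h array was the highest, and RIGI rose by 1.05 ± 0.23 (adjusted p = 0.00588). Its second probe set read 44.7, 43.9 and 95.8 in siHNF4a and 42.2, 44.3 and 106.9 in siControl, the same pattern.

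OAS1 rose by 1.20 ± 0.30 (limma adjusted p = 0.0145) and IFI6 by 1.07 ± 0.29 (adjusted p = 0.0219). The OAS1 call was not kept with its other probe set. Its second probe set read 34.4, 34.6 and 70.4 in siHNF4a and 55.7, 70.2 and 79.4 in siControl. Without probe sets ending in _x_at or _s_at, which left that one, OAS1 had 0.77 and did not pass (limma adjusted p = 0.0853). With averaged probe sets OAS1 had 0.99 and did not pass either (adjusted p = 0.0763). In that fit IFI6, with 1 probe set and an unchanged 1.07, also lost its call (adjusted p = 0.0806). The OAS1 result there can thus not be assigned to its probe sets. For IFI6 the single-array difference was 0.65 in siHNF4a and 1.50 in siControl, and for OAS1 it was 1.34 in siHNF4a and 1.07 in siControl. TRIM22, a ubiquitin ligase with antiviral activity, had 18.3, 24.3 and 43.7 in siHNF4a and 22.1, 28.9 and 36.3 in siControl, and rose by 0.99 ± 0.32 (adjusted p = 0.0492).

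USP18 had 59.0, 81.9 and 36.9 in siHNF4a and 92.4, 125.4 and 48.7 in siControl, highest at 1.5 h and lowest at 24 h in each. It fell by 0.80 ± 0.24 at 24 h (limma adjusted p = 0.0386). TRIM25, the ligase that ubiquitinates RIG-I, had 364.5, 347.5 and 238.1 in siHNF4a and 339.9, 349.3 and 248.2 in siControl, nearly the same in both siRNAs, and fell by 0.53 ± 0.16 (adjusted p = 0.0326).

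**Figure D3:**
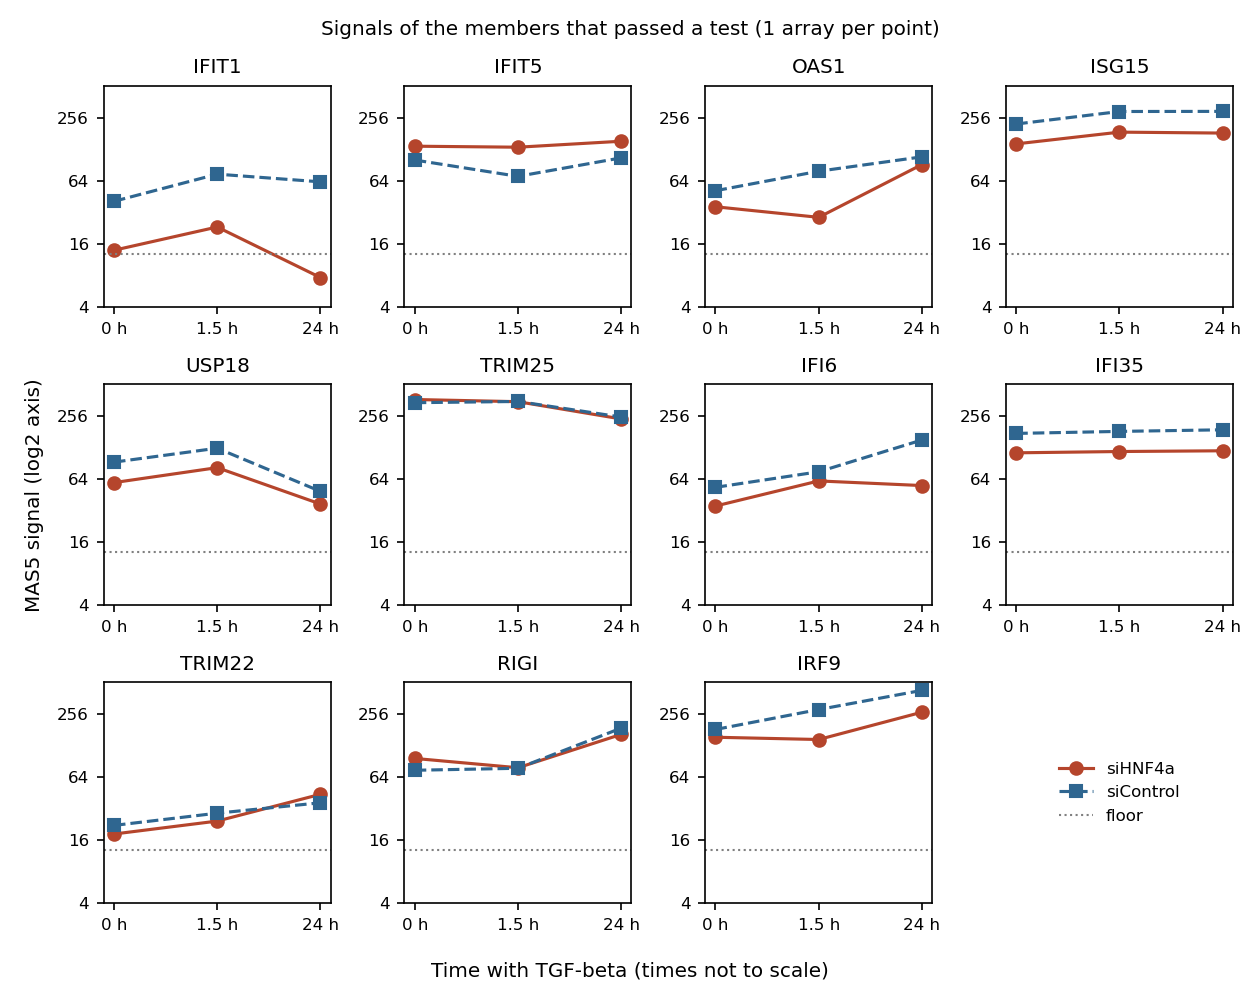
MAS5 signals (log2 axis) at 0, 1.5 and 24 h of TGF-beta of the 11 members that passed a test, 1 array per point, siHNF4a as circles, siControl as squares, the floor of 12.9 dotted. IFIT1, ISG15, IFI35, IRF9, OAS1, IFI6 and USP18 run below their siControl line throughout, and IFIT5 above it. RIGI, TRIM22 and TRIM25 run close together in both siRNAs.

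IFI27 differed from 0 h by 0.16 in siHNF4a and by 2.51 in siControl between single arrays at 24 h, and its mean difference of 1.33 ± 0.44 did not pass (limma adjusted p = 0.0576). Without the siControl 0 h array it was 0.36. Members at least 2-fold higher at 24 h numbered 2 in siHNF4a (6.45%, against 4.5% of all genes) and 5 in siControl (16.1%, against 3.11%). At least 2-fold lower were 1 in siHNF4a (3.23%, against 4.61% of all genes) and none in siControl (0%, against 2.6%). Higher at 24 h in both siRNAs were 14 of 31 members (45.2%), against 32% of all genes, and lower in both were 8 (25.8%), against 37.6%. The median from 0 h was -0.02 in siHNF4a and 0.28 in siControl, against -0.05 and -0.01 over all genes; the 2 share no array.

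**Figure D4:**
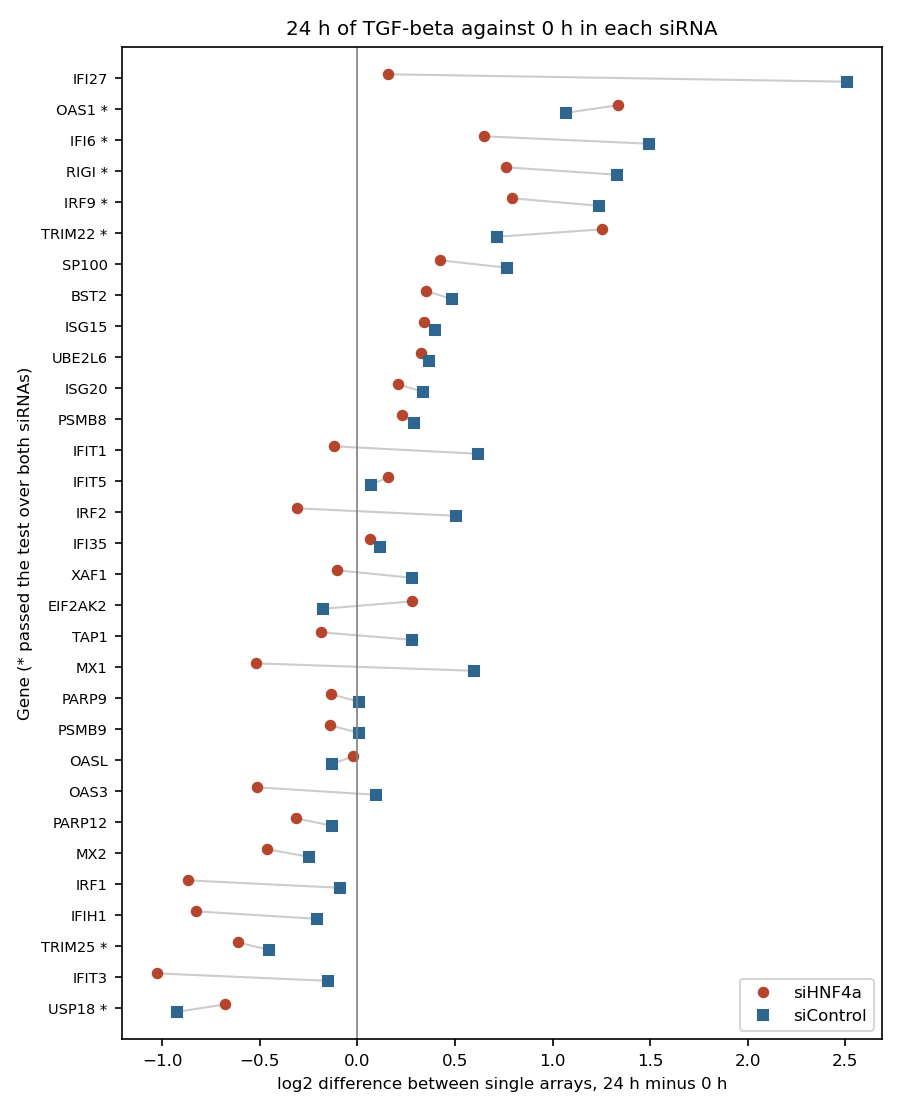
Log2 difference between single arrays, 24 h minus 0 h, for the 31 tested members in rows, siHNF4a as circles and siControl as squares, with stars at members that passed over both siRNAs. IFI27 has the widest gap, 0.16 in siHNF4a and 2.51 in siControl, and the 7 starred genes have both points on one side of 0.

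Without the siControl 0 h array none of the 7 and no other member passed in limma, where 12% of all genes were called, with adjusted p from 0.0543 (IRF9, 0.73) to 0.246 (USP18, -0.73). With the 1.5 h arrays in place of 0 h, IRF9, OAS1, RIGI, TRIM25 and USP18 passed (5 of 31, 16.1%, against 13.4% of all genes), while IFI6 (0.43) and TRIM22 (0.59) did not.

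Among the 44 other interferon-stimulated genes 4 rose and 4 fell at 24 h, and 36 did not pass, with a median of -0.09. Over all genes tested 7.22% rose and 7.82% fell, with a median of -0.03. Whether the list departs from all genes was not tested. IFITM1 rose by 1.50 ± 0.23 (limma adjusted p = 0.000439), in both siRNAs. IFITM2, its paralog, had 1138.5, 1141.2 and 2031.0 in siHNF4a and 1005.1, 1175.5 and 1797.7 in siControl, and rose by 0.84 ± 0.12 (adjusted p = 0.000278). Probe sets of the IFITM genes can share targets, since the paralogs are alike in sequence.

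CMPK2, a mitochondrial nucleotide kinase induced by interferon, had 36.7, 39.9 and 14.4 in siHNF4a and 32.8, 39.0 and 13.7 in siControl, and fell by 1.30 ± 0.31 (limma adjusted p = 0.0104). APOL6, an apolipoprotein L, fell, with a difference of at least -1.17 ± 0.32 (adjusted p = 0.0215). Without the siControl 0 h array IFITM1, IFITM2 and CMPK2 passed, 5 of this list passed in all, and APOL6 (-1.22) did not. The signalling adaptor TANK (0.64 ± 0.17) was 1 of 11 sensing genes to rise and HLA-E, a ligand of natural killer cell receptors, 1 of 17 class I genes (0.59 ± 0.18), with none falling in either list. Of all genes 7.22% rose at 24 h.

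The comparison at 1.5 h called none of the 31 members in limma, where 0.101% of all genes passed, and every adjusted p of a member was 1.00. At an unadjusted p under 0.05 there were 3 (9.68%, against 3.05% of all genes), IFIT1 (0.80 ± 0.32), IFI6 (0.64 ± 0.29) and ISG15 (0.38 ± 0.17), each higher at 1.5 h in both siRNAs. Without the siControl 0 h array their differences were 0.58 for IFIT1, 0.51 for IFI6 and 0.36 for ISG15. MX1 and OAS1 had opposite single-array signs, -0.50 and -0.33 in siHNF4a and 0.89 and 0.62 in siControl. Above 0 h at 1.5 h were 14 of 31 members in siHNF4a (45.2%, against 46.7% of all genes) and 23 of 31 in siControl (74.2%, against 49.1% of all genes). Precision is limited by the 6 arrays throughout.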

How the data were processed

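Biotin-labelled RNA of each siRNA and time was hybridised to 1 Affymetrix array, per the labels. What the authors deposited is a linear intensity per probe set, the MAS5 signal. The submitters' processing notes name GCOS and MAS5 (5.0). The trimmed mean was 100.01 on every array.

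Probe sets were named through the platform annotation (41097 of 54675 with 1 symbol), and a gene's probe set was that with the highest mean signal over 6 arrays. Signals were used as deposited and log2 was taken above a floor of 12.9. The 11921 genes with a mean above the floor were fitted with limma 3.58.1 in R 4.3.3 (eBayes with intensity trend, Benjamini-Hochberg adjustment, threshold 0.05), with siRNA and time as terms, 2 residual and 12.6 prior degrees of freedom, or 1 and 8.4 with a term for the siRNA difference at 24 h. The labels do not say whether arrays came from separate cultures, so p-values measure only the spread between these arrays, which counts a change of the siRNA effect with time as error. With 1 siRNA label per arm, effects on transcripts other than the target were not separated. "At least" marks a difference whose lower side was raised to the floor. The fit was also run on simulated data, but no outcome is given here and none of the results rests on that run.

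Members and gene lists were chosen with earlier results of these data known. Members that passed a test or differed 2-fold between siRNAs at 1 time, with the higher signal above 2 times the floor, are given in full, and up to 4 passing genes of each other list by size. Alternatives covered normalization, floor, pseudocount, probe set choice, filter, trend and left-out arrays. Promoters came from RefSeq. Tables and figures used Python 3.11.15, pandas 2.3.3 and matplotlib 3.10.9.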

Additional observations from a re-analysis of the deposited data

Results flagged for a closer look

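MX1 differed from 0 h in opposite directions at 24 h, by -0.52 in siHNF4a and 0.60 in siControl (log2, single arrays), at least 0.5 in size in each. IFI27 did so at 1.5 h, by -0.68 in siHNF4a, where its signal of 8.4 lay under the floor, and 0.88 in siControl. Each rests on 1 array per siRNA and time, so the difference between siRNAs in these 2 changes was not tested. For the siRNA difference at 24 h set against both earlier times together, MX1 had -0.42 ± 0.64 and did not pass (limma adjusted p = 0.999).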

How the results depend on the processing

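No paired analysis was possible because each group had 1 array and the labels carry no replicate numbers; arrays of both siRNAs at a time were matched only by the time term of the fit. No member difference that passed changed sign under any of the alternatives run. Of those that did not pass, 8 of 26 changed sign for the siRNA (EIF2AK2, IRF1, IRF2, OASL, PARP9, RIGI, TRIM22 and TRIM25), 7 of 24 at 24 h and 14 of 31 at 1.5 h, all under 0.35 in size as first given. For the siRNA the 5 members called were 3 when probe sets of a gene were averaged, 2 without probe sets ending in _x_at or _s_at, which removed ISG15, IFI35 and IFIT5 from the table, 0 without the filter on dim genes, 1 without limma's trend, 8 without the 0 h pair or the siControl 0 h array, 2 when the 1.5 h pair was left out, and 1 when the 24 h pair was. IFIT1 passed in 12 of 13 alternatives (log2 difference -2.05 to -1.33, adjusted p 1.06e-06 to 0.313), ISG15 in 10 of 13 (0.00513 to 0.261) and IFIT5 in 6 of 13 (0.0225 to 0.387). At 24 h the 7 members called were 3 with the floor at the 75th percentile (15 members tested), and 0 without the filter, without the trend and without the siControl 0 h array. TRIM22 passed in 3 of 11 alternatives (adjusted p 0.0431 to 0.275) and IRF9 in 10 of 13 (0.00132 to 0.283). The siRNA difference at 24 h against earlier times called 1 member without the filter, where zero spreads entered the fit. Over all genes the 961 calls for the siRNA were 227 with averaged probe sets, 45 without the trend, 0 without the filter, 578 when the 1.5 h pair and 235 when the 24 h pair was left out, and the 1793 calls at 24 h were 806, 457 and 1 with averaged probe sets, without the trend and without the filter. At 1.5 h the 12 calls over all genes were 26 without the siControl 0 h array, 7 without probe sets ending in _x_at or _s_at and 0 with averaged probe sets, without the trend and without the filter. The cause of these shifts was not tested. The 24 h and 1.5 h comparisons without the 0 h pair, and the 24 h siRNA term without a pair or the siControl 0 h array, were not run, since their contrast or their residual degrees of freedom were then lost. In the 250 bases before the start alone, 58.8% of the 34 members with a promoter held an ISRE core in at least 1 window, against 3.71% of genes. Signals near the floor limit IFIT1, IFIT3, IFI27, MX1, XAF1, IFIH1 and TRIM22 among others, and TNFSF10 and CMPK2 of the other lists.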

Other observations

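ISG20, an interferon-induced RNA exonuclease, was measured by 2 probe sets that differed with time. The one used in the tests had signals of 76.8, 67.8 and 88.7 at 0, 1.5 and 24 h in siHNF4a and 58.3, 46.0 and 73.5 in siControl. The other, under the floor at 0 h, had 11.1, 37.7 and 69.5 in siHNF4a and 9.2, 35.4 and 31.8 in siControl, higher at 1.5 and 24 h in both siRNAs.

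TRIM26 and SP110, from the list of other interferon-stimulated genes, moved in 1 comparison each and were named after their values were seen. TRIM26 fell with siHNF4a (-0.59 ± 0.15, limma adjusted p = 0.0287), and SP110, a nuclear body protein like SP100, rose at 24 h (0.59 ± 0.19, adjusted p = 0.0427). SP100 itself had 0.59 ± 0.22 at 24 h and did not pass (adjusted p = 0.0909).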
